A study of Mus musculus with 4 samples.

Results

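The signal of 9 transcription factor genes that lay out the face, the skull and the limbs was described in cultured mouse osteoblasts, the cells that build bone. The genes are Zic1, Alx1, Six2, Tbx15, Osr1, Osr2, Dlx1, Dlx2 and Prrx1. They were selected on their measured intensities on these same arrays, as genes whose expression can tell apart cells from different parts of the skeleton, so their differences between arrays are a description and carry no test. Every probe set annotated to 1 of these symbols alone was used, which gave 18 probe sets for the 9 genes, out of 34945 probe sets for 18193 genes named in the same way. The samples were 1 control array, given as 0 h, and 1 array each after 6, 12 and 24 h with 10 nM insulin. All 4 groups carry the same genotype, which the growth protocol gives as lacking the IGF-1 receptor and the genotype entry gives as IGF-1 null. The protocol has the cells grown to confluency and serum starved before insulin. Which of these is meant is not settled by the labels. The bone the cells came from and the number and age of the animals are not stated in the labels at hand. Nor is how the genotype was made, or whether a cell line was used. With 1 array per group there is no replicate error, so a difference is described by its size only, and genes at least 2-fold apart are counted.

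Bones arise from several embryonic sources. Neural crest cells build the face and the front of the skull, paraxial mesoderm builds the back of the skull and the spine, and lateral plate mesoderm builds the limbs. Cells from each source switch on their own set of patterning transcription factors, and cultured bone and connective tissue cells often keep part of that set. Zic1 is a zinc finger factor of the dorsal neural tube, the somites and the skull sutures. Alx1 is a homeodomain factor of frontonasal mesenchyme, and Six2 a homeodomain factor best known from nephron progenitors that is also made in facial mesenchyme. Dlx1 and Dlx2 are homeodomain factors of the pharyngeal arches. Osr1 and Osr2 are zinc finger factors of the odd-skipped family, with roles in palate, joints, limb and kidney. Prrx1 is a homeodomain factor of limb bud and cranial mesenchyme, and Tbx15 a T-box factor needed for the shoulder blade, other limb bones and the dermis.

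RefSeq start regions on mouse build GRCm38.p6 matched 5 of the 9 genes, and those of 3 genes are shown: Zic1 and Six2 as the members highest above 0 h, and Prrx1 as one less than 2-fold from it. Each runs 5′ to 3′ on the gene's strand, from 250 bases before the annotated start to 50 bases after it. Capitals mark matches on either strand to the CCAAT box CCAAT, the E-box CACGTG, the TATA motif TATAAA and the homeodomain motif TAATTA. Zic1 lies at chr9:91365719-91366018 on the minus strand, Six2 at chr17:85688205-85688504 on the minus strand and Prrx1 at chr1:163313601-163313900 on the minus strand.
Zic1: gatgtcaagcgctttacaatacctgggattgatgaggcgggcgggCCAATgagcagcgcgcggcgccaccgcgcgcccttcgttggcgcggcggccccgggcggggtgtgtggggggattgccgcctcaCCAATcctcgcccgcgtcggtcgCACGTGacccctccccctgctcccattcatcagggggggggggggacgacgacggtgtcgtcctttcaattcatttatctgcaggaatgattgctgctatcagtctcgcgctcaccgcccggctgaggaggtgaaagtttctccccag
Six2: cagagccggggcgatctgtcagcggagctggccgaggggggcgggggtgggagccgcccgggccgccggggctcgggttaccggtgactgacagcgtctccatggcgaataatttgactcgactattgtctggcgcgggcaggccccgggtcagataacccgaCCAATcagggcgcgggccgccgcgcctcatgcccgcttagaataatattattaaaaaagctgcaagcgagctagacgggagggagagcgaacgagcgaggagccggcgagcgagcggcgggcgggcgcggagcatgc
Prrx1: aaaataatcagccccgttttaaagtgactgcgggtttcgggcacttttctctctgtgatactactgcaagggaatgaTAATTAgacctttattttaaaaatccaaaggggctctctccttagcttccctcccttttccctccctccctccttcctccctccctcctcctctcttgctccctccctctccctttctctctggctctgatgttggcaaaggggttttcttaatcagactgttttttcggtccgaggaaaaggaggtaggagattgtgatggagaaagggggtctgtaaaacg

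The Zic1 region held 31 CpG dinucleotides, more than 89.4% of 32851 start regions, and the Six2 region held 37, more than 94.4%. The Dlx1 and Dlx2 regions had 27 and 29 CpG dinucleotides, more than 84.5% and 87.1% of all regions. These 4 regions thus lie toward the CpG-rich end, whereas the Prrx1 region had 6, more than 43.6% of all regions. The CCAAT box occurred 2 times in Zic1, 1 time each in Six2 and Dlx2, and in 37.4% of all regions. The E-box occurred 1 time in Zic1 and 2 times in Dlx2, against 7.15% of all regions with a match. The homeodomain motif occurred 1 time in Prrx1, against 5.29% of all regions. The TATA motif, found in 13.6% of all regions, matched in none of the 5. A match describes the letters only.

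The 0 h array stood apart from the insulin arrays in ways that bear on every difference below. Median intensities were close, from 64.97 to 65.75. Sex-linked RNA differed: the X-inactivation RNA Xist read 109 at 0 h and 1278 to 1636 with insulin, and the Y-linked gene Eif2s3y had 12.2 and 295 to 326. The Y-linked genes Kdm5d and Uty were below the brightness filter, a mean intensity of 66.2 that is the median of all probe sets, with 10.1 and 12.9 at 0 h and 52.7 to 61.8 and 43.7 to 52.6 with insulin. Of 9 osteoblast markers with a probe set here, 5 were at least 2-fold higher on all 3 insulin arrays, namely Ibsp, Pth1r, Alpl, Dmp1 and Sp7, and the type I collagen genes Col1a1 and Col1a2 and the matrix gene Sparc were bright on every array. Sp7, which is needed for osteoblast differentiation, had 60.8 at 0 h and 125 to 213 with insulin, and the osteocyte gene Phex had 191 and 223 to 531. Of 6 smooth muscle and myofibroblast markers 6 were higher at all times, with a summed intensity of 6032 at 0 h and 43755 to 46420 with insulin. Beside these and the other marker counts, 9.81% of all genes above the brightness filter were higher at all 3 times and 3.8% lower. Many higher markers were below the filter at 0 h and passed it only through the insulin arrays. These were Pth1r, Alpl, Sp7, Cnn1, Actg2, Myh11, Lmod1, Col9a1, Col10a1, Cd68, Tyrobp, Fcer1g, Adipoq and Tubb3. Without the filter 5 of 10 chondrocyte and 6 of 10 macrophage and osteoclast markers were higher. So were 1 of 8 skeletal muscle and 1 of 8 neural and glial markers, and no epithelial or endothelial one. The osteoblast, smooth muscle and adipocyte counts stay the same. Of all named genes 6.72% were higher and 2.87% lower. Of 9 chondrocyte markers above the brightness filter 5 were higher (sums over all 10 of 938 and 6477 to 11320), and of 8 macrophage and osteoclast markers 5 were higher and 1 lower (sums over all 10 of 2519 and 5563 to 6582). Adipocyte markers were mixed, with 2 of 5 higher and 1 lower (sums of 10541 and 4171 to 8483). The lower one, Lpl, made up most of the 0 h sum, with 9525 at 0 h and 1492 to 3035 with insulin. The 2 higher ones were Adipoq (23.4 and 511 to 1141) and Fabp4 (664 and 1879 to 3834). Skeletal muscle markers had 1 of 2 higher, with sums over all 8 of 473 and 1921 to 2087. The higher sum rests on Acta1, with 130 at 0 h and 1626 to 1802 with insulin. The median intensity of the 8 was 46.2 at 0 h and 34.4 to 38.0 with insulin. The myogenic regulator genes Myod1, Myog and Myf5 were below the filter. Neural and glial markers had 1 of 3 higher, with sums over all 8 of 349.5 and 433 to 504. The higher sum rests on Tubb3, with 35.8 at 0 h and 162 to 209 with insulin. The neural genes Snap25 and Olig2 were near the lowest signals. None of 3 epithelial markers and not the 1 endothelial marker above the filter differed 2-fold at all times, with sums over all 6 epithelial markers of 625 and 505 to 537 and over all 5 endothelial markers of 208 and 207 to 242. Their part in the differences of the patterning genes was not tested. Different numbers of expressing cells and different amounts of RNA per cell cannot be told apart in such bulk RNA, and insulin and whatever else separates the 0 h array cannot be told apart either.

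Of the 9 genes, taken by their brightest probe set, 4 lay 2-fold or more above the 0 h array on all 3 insulin arrays, namely Zic1, Six2, Alx1 and Tbx15. Of all 18193 named genes 6.72% were. Osr1 and Osr2 were at least 2-fold lower at all 3 times, against 2.87% of all named genes. Dlx1, Dlx2 and Prrx1 were less than 2-fold from 0 h at each time. Since the genes were selected on these differences, nothing is read from their shares against the background. By probe set, 5, 6 and 5 of 18 were at least 2-fold higher at 6, 12 and 24 h, against 6.06%, 6.78% and 6.52% of all named probe sets. At the same times 2, 2 and 2 were at least 2-fold lower, against 3.78%, 4.61% and 4.29%. At a 1.5-fold threshold 10, 9 and 9 probe sets were higher, where 11.6%, 12.6% and 12.1% of all named probe sets were. The genes higher at 1.5-fold were 7, 7 and 6 of 9, with 13.2%, 14.8% and 14% of all named genes past that size.

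**Figure D1:**
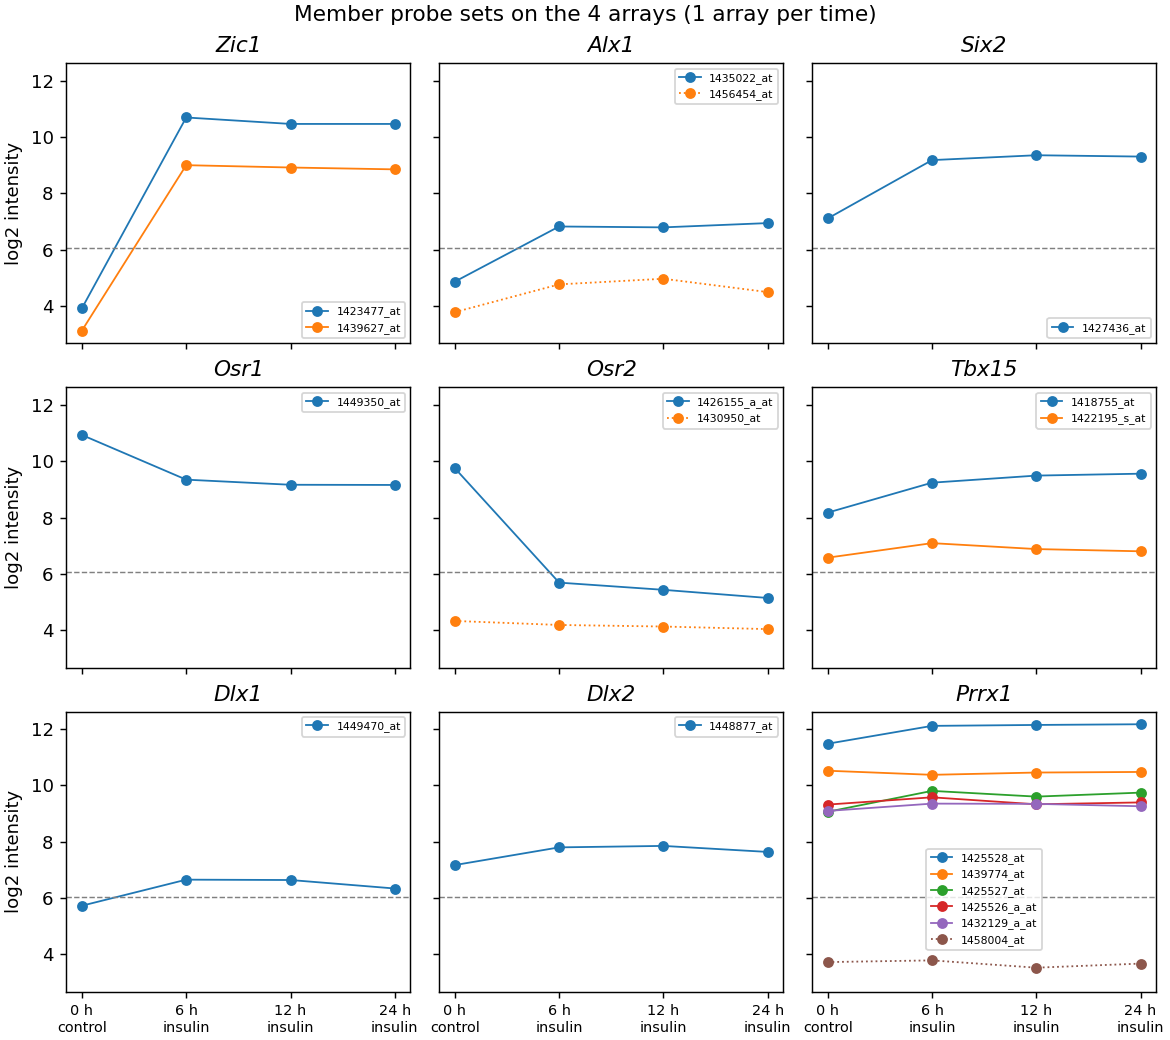
Log2 intensity of each of the 18 probe sets (vertical axis) on the 4 arrays (horizontal axis), in a panel for each gene. Points are single arrays, dotted lines are probe sets whose mean lies below the brightness filter (dashed grey line, intensity 66.2), and in each gene the largest step lies between the 0 h array and the insulin arrays or there is no 2-fold step at all.

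Of the 9 genes Zic1 was farthest from 0 h. Its brighter probe set, 1423477_at, read 15.0 at 0 h, and its intensity with insulin was 1659, 1415 and 1415 at 6, 12 and 24 h. At 0 h that probe set was brighter than 10.4% of the 45037 probe sets on the array, and at 6 h than 93.6%. The second probe set, 1439627_at, had 8.67 at 0 h, among the dimmest 0.198% of that array, and 512, 483 and 462 with insulin. Both probe sets therefore read Zic1 at the dim end on the control array and clearly above it on each insulin array. The log2 differences of the brighter one were 6.79, 6.56 and 6.56, the 9th highest mean over the 3 times among 18193 genes. The size of that fold is set by a 0 h value close to the dimmest signals. With 16 units added to every intensity before log2 the 6 h difference was 5.75.

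Alx1, Six2 and Tbx15 were also higher with insulin, by smaller steps. Six2 has 1 probe set, with 138 at 0 h and 580, 654 and 633 at 6, 12 and 24 h, which is 4.22, 4.75 and 4.60-fold higher. It was above the brightness filter on all 4 arrays, unlike Zic1, but its 0 h value lies within the range of genes of other organs given below for Alx1. The brighter Alx1 probe set, 1435022_at, had 29.0 at 0 h and 113, 110 and 123 with insulin, 3.90, 3.81 and 4.24-fold higher. This probe set was below the brightness filter at 0 h and above it with insulin. Its insulin values still lie within the range of 10.4 to 155 read for 15 genes of other organs. Those genes, such as Alb of liver and Umod of kidney, served as a guide to background. The second Alx1 probe set, 1456454_at, was dimmer, with 13.7 at 0 h and 27.1, 31.1 and 22.4, and was past 2-fold at 12 h only.

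Tbx15 differed in size between its probe sets. The brighter, 1418755_at, had 289 at 0 h and 604, 719 and 754 at 6, 12 and 24 h, which is 2.09, 2.49 and 2.61-fold higher. The other, 1422195_s_at, had 95.1 and 136, 118 and 111, which is 1.43, 1.24 and 1.17-fold higher, all within the range of the genes of other organs. Both were lowest at 0 h, but their order over the insulin arrays was opposite, with the first highest at 24 h and the second highest at 6 h. With the mean of both probe sets the log2 differences were 0.79, 0.81 and 0.81, below 2-fold.

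Both odd-skipped genes were lower on the insulin arrays than at 0 h. Osr1 has 1 probe set, with 1958 at 0 h and 651, 574 and 571 at 6, 12 and 24 h, which is 3.01, 3.41 and 3.43-fold lower. It remained well above the brightness filter on each insulin array. Osr2, by probe set 1426155_a_at, had 864 at 0 h and 51.4, 43.0 and 35.2 with insulin. The log2 differences of -4.07, -4.33 and -4.62 gave Osr2 the 3rd lowest mean of 18193 genes. On the insulin arrays this probe set was within the range of the genes of other organs and below the brightness filter. The second Osr2 probe set, 1430950_at, was dim on every array, with 20.0, 18.1, 17.4 and 16.3 at 0, 6, 12 and 24 h. The Osr2 difference thus rests on 1 probe set, whose suffix marks a design shared by several transcripts of a gene. With suffixed probe sets left out Osr2 is read only by the dim one, and the log2 differences are -0.14, -0.20 and -0.29.

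The pharyngeal arch factors Dlx1 and Dlx2, which are neighbours on chromosome 2, kept similar small differences. Dlx2 had 144 at 0 h and 223, 231 and 199 at 6, 12 and 24 h, 1.55, 1.60 and 1.38-fold higher. Dlx1 was dimmer, with 52.8 and 100.5, 99.6 and 80.8, and 1.90, 1.88 and 1.53-fold higher, just inside the 2-fold line at 6 h. Each has 1 probe set, and in both the 0 h array was the lowest and the 24 h array the lowest of the insulin arrays. All 4 Dlx1 values lie within the range of the genes of other organs, as does the Dlx2 value at 0 h.

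Prrx1, the mesenchymal homeodomain gene, was bright on all 4 arrays and less than 2-fold from 0 h by every probe set. Its brightest probe set, 1425528_at, had 2867 at 0 h and 4452, 4555 and 4634 with insulin, 1.55, 1.59 and 1.62-fold higher. Probe set 1425527_at had 535 and 896, 778 and 859. The remaining probe sets above the filter were closer to 0 h: 1439774_at had 1474 and 1332, 1409 and 1430, and was the only one lower at each time. Probe set 1425526_a_at had 639 and 765, 644 and 675, and 1432129_a_at had 547 and 655, 651 and 614. The last, 1458004_at, was dim at 11.5 to 13.7. Of 6 Prrx1 probe sets 5 were above the brightness filter on every array.

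**Figure D2:**
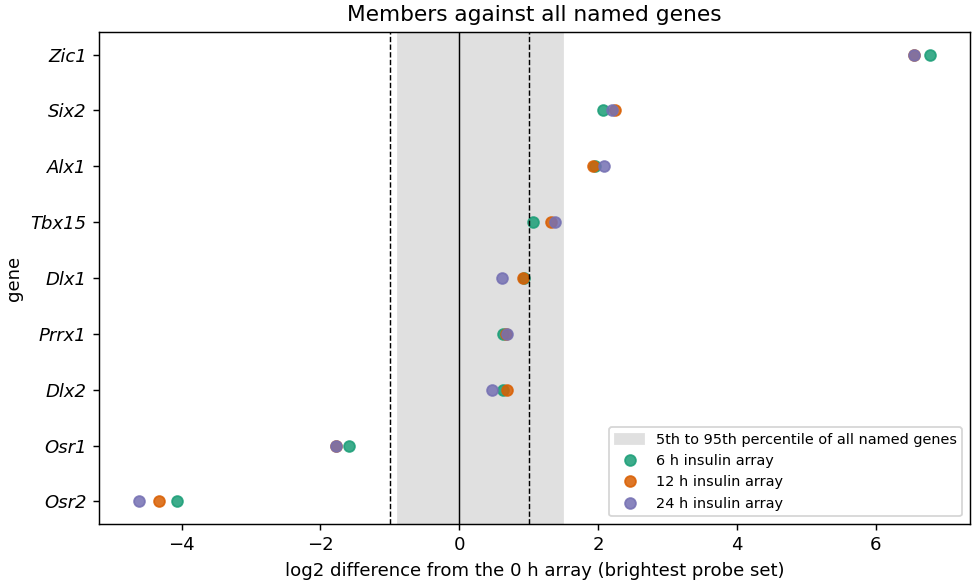
Log2 difference of each insulin array from the 0 h array (horizontal axis) for the brightest probe set of each gene (vertical axis), with 1 point per time. The grey band spans the 5th to 95th percentile of all 18193 named genes and dashed lines mark 2-fold; Zic1, Six2, Alx1, Osr1 and Osr2 lie outside the band at all times and the other 4 genes inside it.

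Without the 0 h array the member probe sets differed little between arrays. Over the 3 insulin arrays the 18 probe sets had a median log2 range of 0.21, against 0.18 for all named probe sets. None of the 18 reached 1.5-fold. Few of all 34945 named probe sets did, 820 at 1.5-fold and 91 at 2-fold, so nothing particular to the members is read from that. The widest was the bright Osr2 probe set, 1.46-fold lower at 24 h than at 6 h, already close to the dim end. The Alx1 probe set 1456454_at followed with 1.39-fold between its highest and lowest insulin value. Tbx15 by 1418755_at was 1.25-fold higher at 24 h than at 6 h, Dlx1 1.24-fold lower and Zic1 by 1423477_at 1.17-fold lower. Prrx1 by its brightest probe set spanned 1.04-fold. The insulin arrays are different times and not replicates, so no spread around these values is known.

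Genes with the profile most like Zic1 and Osr2 were sought among all named genes by the Euclidean distance between log2 values over the 4 arrays, each gene first centred on its own mean. Nearest to Zic1 were the insulin receptor adaptor gene Grb10 (distance 0.21), the ephrin receptor gene Epha3 (0.21) and the smooth muscle actin gene Actg2 (0.25). Epha3 had 12.0 at 0 h and 1436, 1140 and 1354 with insulin. Nearest to Osr2 were Usp17la (0.39), Dlk1 (0.41) and Ifi27l2a (0.45). Usp17la, a deubiquitinase gene, had 399.6 at 0 h and 22.3, 21.2 and 21.8 with insulin. Over only 4 arrays this likeness reflects mainly the step between 0 h and the others.

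Other patterning genes were then read from lists of paralogues and of facial, limb, axial and signalling genes. Among genes above the brightness filter, 9.81% of 11661 were at least 2-fold higher at all 3 times and 3.8% were lower. The filter is a mean over the 4 arrays, so a gene dim at 0 h can pass it through its insulin values. Among the higher genes named below, Dlx5, Msx2, Foxf1 and Meox2 did so. Without the filter 2 of 15 paralogues, 7 of 31 facial and 3 of 22 limb genes were higher at all 3 times. So were 2 of 12 axial and 4 of 22 signalling genes. Lower were 3 facial, 1 limb and 2 of 33 Hox genes. Of all named genes 6.72% were higher and 2.87% lower. Of 6 paralogues above the filter 1 was higher and none lower, with medians of 0.64, 0.63 and 0.57. Dlx5, an arch and osteoblast homeodomain gene of the same family as Dlx1 and Dlx2, had 39.4 at 0 h and 342, 419 and 412 with insulin, 8.67, 10.6 and 10.5-fold higher. Prrx2, the paralogue of Prrx1, had 1388 and 2900, 2852 and 2562, past 2-fold at 6 and 12 h but not at 24 h. The Alx1 paralogue Alx4 was below the filter (56.7, 67.8, 55.1 and 50.4), as was the Zic1 paralogue Zic5, whose 24.0 at 0 h and 61.5, 58.3 and 71.7 with insulin were past 2-fold at all times.

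Facial and cranial factors differed in both directions. Of 19 above the filter 5 were higher and 2 lower at all 3 times, with list medians of 0.26, 0.50 and 0.51 on the log2 scale, against 0.01, 0.03 and 0.00 for all genes above the filter. Msx2, a homeodomain factor of skull vault and limb, had 48.5 at 0 h and 828, 773 and 672 with insulin. Eya4, a transcriptional partner of the family that holds Six2, was 3.44, 4.32 and 4.54-fold higher, the forkhead gene Foxf1 3.49, 3.53 and 3.12-fold, and the Snail family gene Snai1 2.44, 2.62 and 2.48-fold. Tfap2a, a neural crest factor, went the other way, with 546 at 0 h and 68.6, 54.0 and 55.3. Twist2, a helix-loop-helix factor of mesenchyme, had 1691 and 361, 339 and 276.

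Limb factors also went both ways. Of 10 above the filter 3 were higher and 1 lower, with medians of 0.00, 0.03 and 0.03. Shox2, a homeodomain factor of the proximal limb and the palate, had 2341 at 0 h and 274, 238 and 238 with insulin, 8.54, 9.83 and 9.83-fold lower. Irx3 was 4.23, 5.23 and 4.95-fold higher and its neighbour Irx5 2.06, 2.61 and 2.62-fold, and Gli3, an effector of hedgehog signalling, was 2.65, 2.66 and 2.55-fold higher. The forelimb and hindlimb identity genes Tbx5, Tbx4 and Pitx1 were near or below the filter on all arrays: Tbx5 had 65.6, 71.7, 63.6 and 71.2, Tbx4 28.0, 37.2, 26.3 and 29.4, and Pitx1 50.5, 55.5, 48.9 and 54.7 at 0, 6, 12 and 24 h. These 3 were chosen for mention after their values were seen.

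Of 5 genes of the axial skeleton list above the filter 2 were higher, Meox2 and Foxp1, and none lower, with medians of 0.21, 0.54 and 0.28. The other 3, Pax9, Meox1 and Tcf15, were less than 2-fold from 0 h at each time, so the list as a whole is not called higher. Meox2, a homeodomain factor of somites and limb muscle, had 15.5 at 0 h and 599, 593 and 532 with insulin, a step like that of Zic1. Foxp1 was 4.10, 4.01 and 4.46-fold higher. Among ligands, receptors and effectors that act on these factors 2 of 12 were higher and none lower, with medians of 0.31, 0.59 and 0.78. Bmp4, a ligand that induces Msx and Dlx genes, had 69.5 at 0 h and 1063, 1078 and 902, and Wnt5a was 2.21, 2.59 and 2.52-fold higher. Of the Hox genes, which give position along the body axis and are largely silent in the face, 12 of 33 measured were above the filter. Of those 2 were lower and none higher, with medians of -0.30, -0.32 and -0.31. Hoxa7 had 430 at 0 h and 129, 120 and 122 with insulin, and Hoxd8 had 1084 and 409, 431 and 365.

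**Figure D3:**
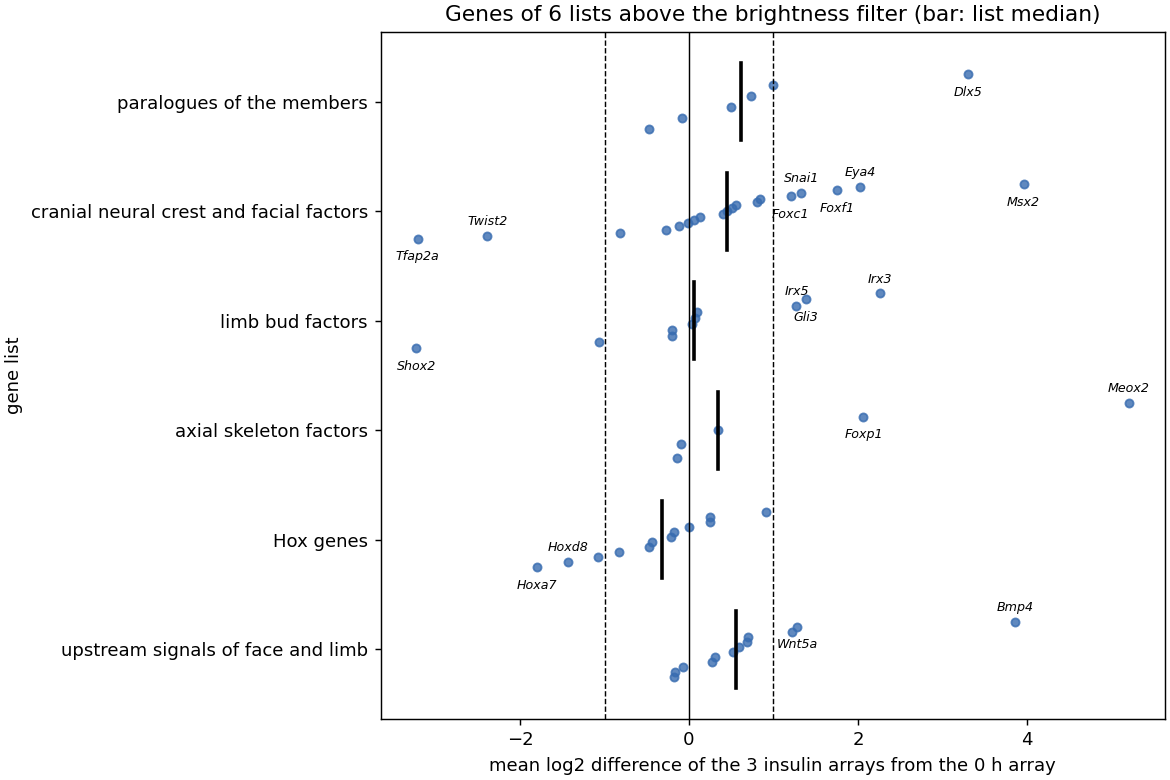
Mean log2 difference of the 3 insulin arrays from the 0 h array (horizontal axis) for each gene above the brightness filter in 6 lists (rows); points are genes, black bars list medians and dashed lines 2-fold. Names mark genes at least 2-fold apart in 1 direction at all 3 times, with Dlx5, Msx2 and Meox2 far to the right and Tfap2a, Twist2 and Shox2 far to the left.

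The genes next to the 9 members on the chromosomes were read in the same way. Of 32 neighbours, taken as 2 protein-coding genes with a probe set on each side in RefSeq gene order, 2 were at least 2-fold higher and 2 lower at all times, where 6.72% of all named genes were higher and 2.87% lower. Zic4, the closest neighbour of Zic1 and its paralogue, had 73.3 at 0 h and 112, 96.6 and 102 with insulin, a mean log2 difference of 0.50 beside 6.63 for Zic1. Of the neighbours past 2-fold, Tmtc2 near Alx1 was higher (18.8 and 85.8, 94.7 and 94.6), in the same direction as Alx1, and Vps13b beside Osr2 was lower (684 and 230, 250 and 260), in the same direction as Osr2. Wdr35, near Osr1, was higher (365 and 821, 899 and 891) while Osr1 was lower, and Hat1, near Dlx1, was lower (1024 and 485, 433 and 453) while Dlx1 was higher. Median differences of the members' own 8 chromosomes lay between -0.16 and 0.07 on the log2 scale. With those medians removed each of the 9 genes stayed on the same side of 2-fold.

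**Figure D4:**
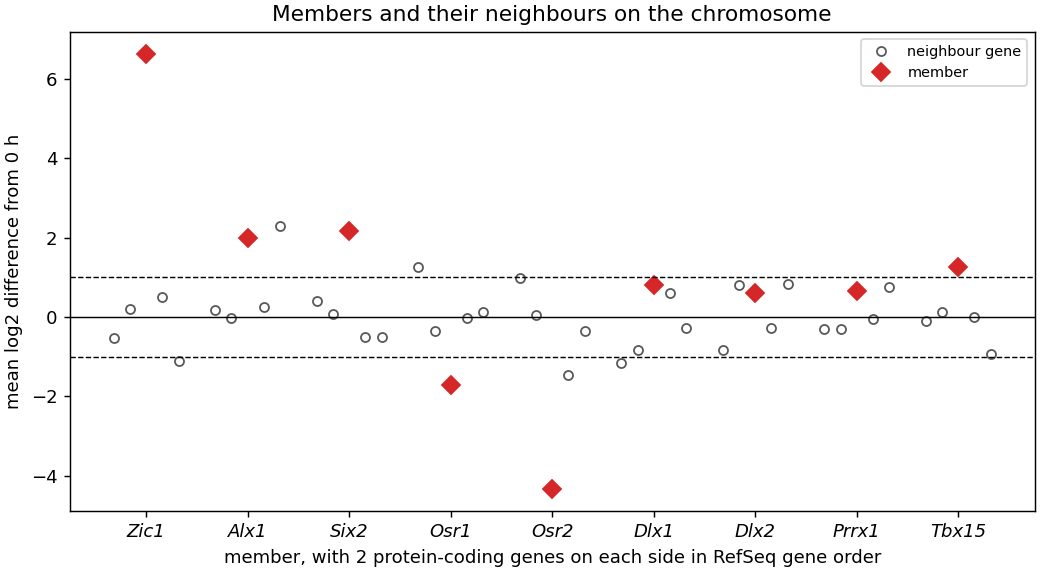
Mean log2 difference of the 3 insulin arrays from the 0 h array (vertical axis) for each of the 9 members (red diamonds) and for 2 protein-coding genes on each side of it in gene order (open circles, horizontal axis). Dashed lines mark 2-fold; Zic1, Six2, Osr1 and Osr2 lie apart from all their plotted neighbours, whereas Tmtc2 lies beside Alx1.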

How the data were processed

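RNA of 4 samples was labelled by 3′ in vitro transcription and read on Affymetrix arrays, per the labels' protocols. The authors deposited linear intensities, 1 for each probe set on each array, made with RMA per the submitters' processing notes; RMA corrects background, normalizes and summarises probes, and compresses differences of dim probe sets. Of 45101 probe sets 64 were controls and left out. The platform annotation, which can be old, gave 1 symbol for 34945, several for 932 and none here for 9160. Log2 was taken and the 0 h array subtracted. Where a gene had several probe sets, the one with the largest mean log2 value stood for it. For lists, that value had to reach the median of all probe sets (intensity 66.2), and Zic1, Alx1 and Dlx1 passed only through the insulin arrays and Osr2 only through the 0 h array. Some list genes, such as Dlx5, Msx2, Foxf1 and Meox2, also passed only through the insulin arrays. Of 254 list entries 27 had no probe set of 1 symbol, and 1 older symbol was replaced through RefSeq. Members and lists were chosen with earlier results of these data known. Named genes of the patterning lists are up to 6 per list, the farthest apart of those 2-fold in 1 direction at all times; lists of other cell types are given mainly as counts and sums. Also named are all osteoblast markers and sex-linked genes with a probe set of 1 symbol, and the 3 genes most like the highest and the lowest member. The design has no test, since 1 array per group gives no error. The number of arrays limits the precision. Counting steps were tested on simulated data. Alternatives were quantile normalization, centring on medians, subtracting chromosome medians or a loess trend (span 0.3), a pseudocount of 16, folds of 1.5 and 3, other brightness filters and other probe set rules. Python 3.11.15, numpy 2.4.6, pandas 2.3.3, statsmodels 0.14.6 and matplotlib 3.10.9 were used.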

Additional observations from a re-analysis of the deposited data

How the results depend on the processing

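Of 189 member differences recomputed under alternatives 183 kept their direction and side of the 2-fold line and 6 kept the direction but lost 2-fold, those of Tbx15 when its probe sets were averaged (0.79, 0.81 and 0.81) and of Osr2 with suffixed probe sets left out (-0.14, -0.20 and -0.29). That second rule left 1, 1 and 1 member genes 2-fold lower at 6, 12 and 24 h, since it removes the bright Osr2 probe set. At 1.5-fold 10 and 9 member probe sets were higher at 6 and 24 h and 7 and 7 member genes at 6 and 12 h, through the wider threshold. The other member counts stayed within 1.5 times, 101 of 108. The median of the skeletal muscle markers changed sign, to -0.23, -0.21 and -0.17 without the brightness filter and to -0.27, -0.29 and -0.31 without suffixed probe sets, since other genes are then measured. Of 429 list medians 396 kept their sign, and of 358 list counts 336 stayed within 1.5 times. The limb list median at 6 h, near 0, was -0.02 with arrays centred and -0.03 after quantile normalization. No paired analysis was possible because each group holds 1 array. Signals near background limit what can be seen of Zic1 at 0 h, Osr2 with insulin, and Alx1 and Dlx1 throughout.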
